A study of Mus musculus with 4 samples.

Results

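The interferon response genes were 36 named mouse genes that interferons are known to switch on. They were chosen by symbol and not by their values, though with earlier results of these data known. They were followed on 4 Affymetrix arrays of skin dermis, with 1 array per condition. Of the 36, 34 had a probe set that the platform annotation gives to a single gene, among 18193 such genes on the array. On these arrays a transcript is read by 1 or more probe sets, each made of several short oligonucleotides. The 34 genes held 54 of the 34945 single-gene probe sets, and the brightest of a gene's probe sets, by its mean log2 signal over the arrays, stood for the gene. At least 1 array called 31 of the 34 present, against 13375 of the 18193 genes, and 30 of them were present on all 4 arrays. *Ifi44* had no single-gene probe set, the probe set for *Isg15* was shared with *Gm9706*, and neither gene was analysed here. *Oas1a*, *Oas3* and *Mx2* had no present call on any array.

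The arrays were named for what each sample held. The PP2 array came from ventral skin dermis of pregnant mice at 15 days post-coitus (dpc) injected with PP2, an inhibitor of Src family kinases. The ventral array came from ventral skin dermis at 15 dpc, the dorsal array from dorsal skin dermis at 15 dpc, and the virgin array from ventral skin dermis of virgin mice, all after injections of the vehicle DMSO. All were adult female C57BL/6 mice, given as 10 weeks old, and were injected 2 times daily over 4 days. In pregnant mice the injections began at 12 dpc. The sample titles give 15 dpc and the descriptions 16 dpc. Subcutaneous fat was removed and the dermal cells were released with collagenases and hyaluronidase. The sources used here do not say how many mice gave each sample. With 1 array per condition, no difference below has a replicate error or a p-value, and each ratio compares 2 arrays.

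Interferons are secreted when cells sense foreign nucleic acid, or by activated lymphocytes. Type I and type II interferons bind separate receptors, whose Janus kinases phosphorylate transcription factors of the Stat family. Stat2 and Irf9 act in a complex that binds interferon-stimulated response elements, whereas the type II signal acts through gamma-activated sites. The induced genes encode nucleic acid sensors, transcription factors that widen the response, proteins that bind viral RNA or block viral assembly, GTPases that attack the vacuoles of pathogens, and the machinery that loads peptides on MHC class I molecules. Many of them are expressed at a low level in uninfected tissue.

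Most interferon response genes had their highest signal on the virgin array. Of the 31 detected genes, 22 (71.0%) did so, against 21.6% of all detected genes. The PP2, ventral and dorsal arrays each held the highest signal of 3 genes (9.68%), against 28.6%, 22.1% and 27.7% of all detected genes. This even split depended on the scaling, since scaling to one median put 8 genes highest on the PP2 array, 2 on the ventral array, 1 on the dorsal array and 20 on the virgin array. The lowest signal lay on the PP2 array for 4 genes (12.9%, against 28.1% of all detected genes), on the ventral array for 10 (32.3%, against 19.1%), on the dorsal array for 17 (54.8%, against 30.8%) and on the virgin array for 0 (against 21.9%). Over the 3 DMSO arrays alone, a choice made after the values were seen, 24 of the 31 (77.4%) were highest on the virgin array, against 30.8% of all detected genes. In a mixed tissue such as dermis, fewer cells of a type and less RNA per cell cannot be told apart. The genes highest on another array were *Rtp4*, *Usp18* and *Irgm1* on the PP2 array, *Ddx58*, *Xaf1* and *Parp14* on the ventral array, and *Irf7*, *Cmpk2* and *Tap1* on the dorsal array.

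**Figure D1:**
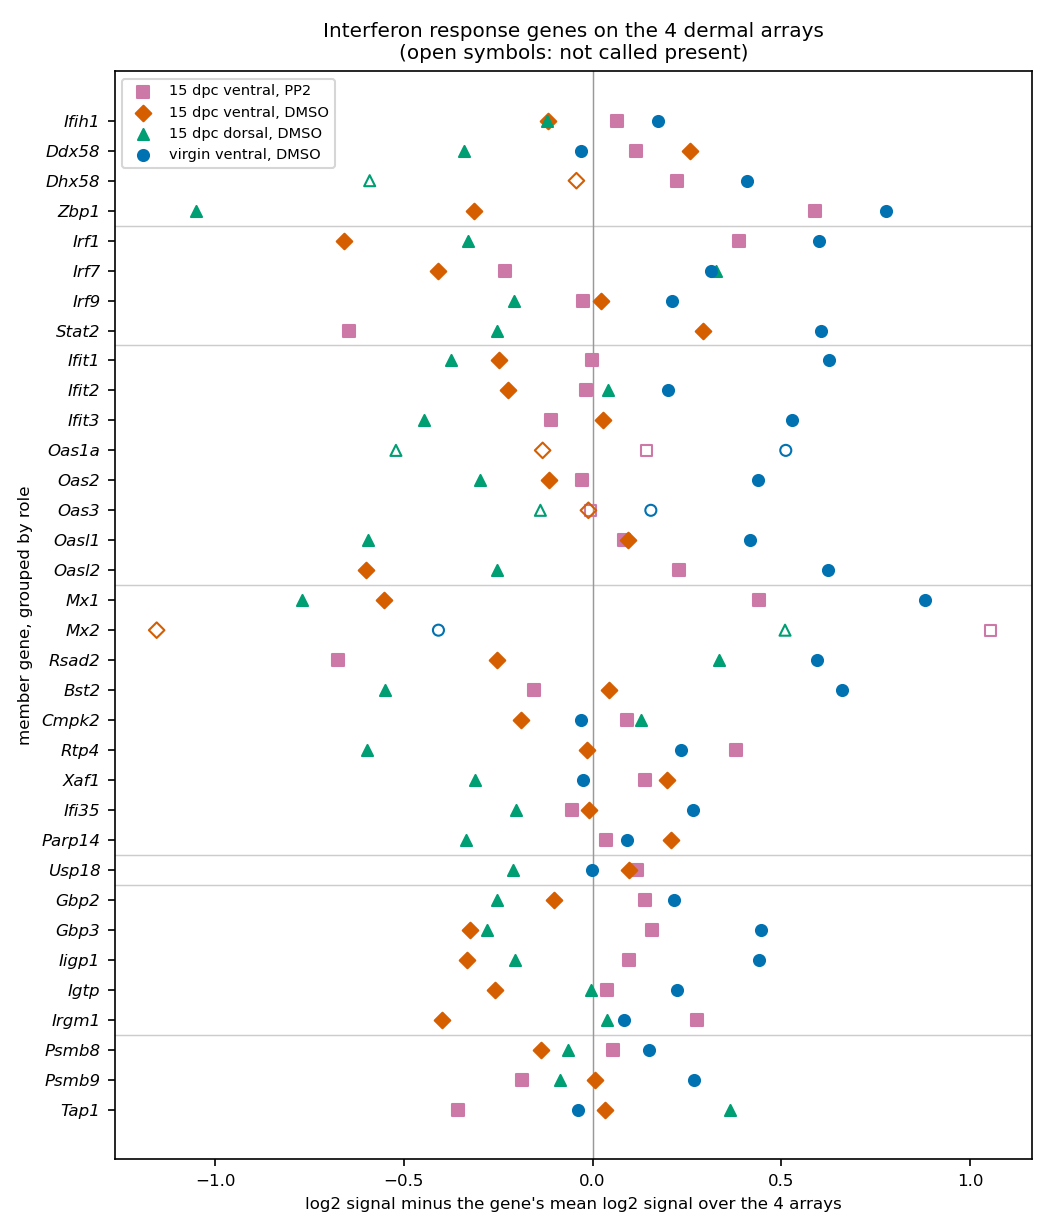
Signal of each of the 34 measured interferon response genes on the 4 arrays, as log2 signal minus the gene's mean over the arrays, with genes grouped by role and open symbols where the call was not present. The circles of the virgin array lie rightmost for 22 of the 31 detected genes, and the triangles of the dorsal array leftmost for 17.

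**Figure D2:**
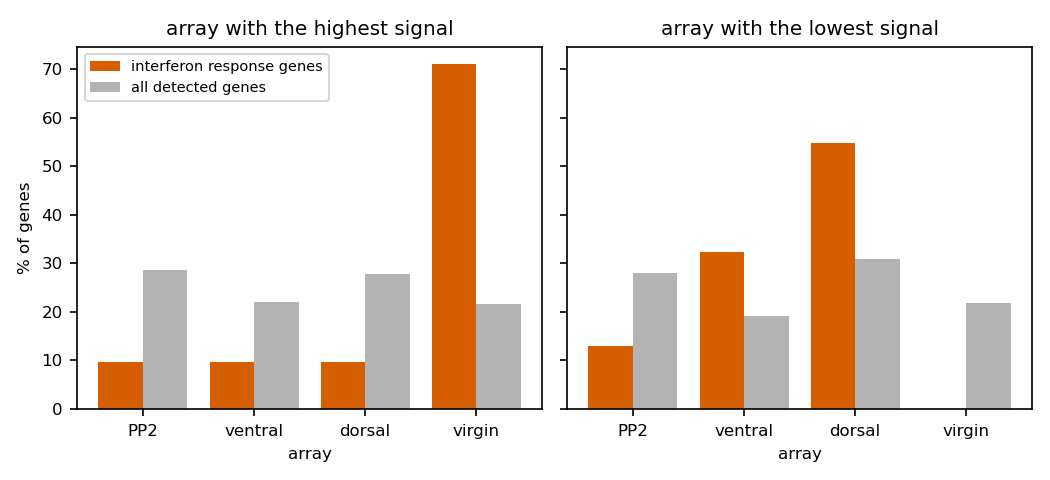
Share of genes, in percent, whose highest signal (left) or lowest signal (right) was on each array, for the 31 detected interferon response genes and for all 13375 detected genes. The virgin array holds the highest signal of 71.0% of the interferon response genes and the lowest signal of 0.

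The cell types in the samples were read from marker lists. All 6 fibroblast markers, of the cells that make up most of the dermis, were present on all 4 arrays, and so were all 6 keratinocyte markers. Of 9 macrophage markers, 8 were detected, and their summed signal was 3993 on the PP2 array, 3641 on the ventral array, 3265 on the dorsal array and 5175 on the virgin array. The sum did not follow every marker. It was higher on the PP2 than on the ventral array, although 6 of the 8 markers were lower on the PP2 array. Between the ventral and virgin arrays, 6 of the 8 macrophage markers were lower on the ventral array and 2 were higher. Like the interferon response genes, these markers were highest on the virgin array for 5 of 8 and lowest on the dorsal array for 7 of 8. Of all detected genes, 21.6% were highest on the virgin array and 30.8% lowest on the dorsal array. The fibroblast markers were highest on the virgin array for 3 of 6 and lowest on the dorsal array for 4 of 6. For the blood endothelial markers these counts were 1 and 3 of 5, and for the keratinocyte markers 0 and 0 of 6. *Ptprc*, the common leukocyte antigen, had 159 on the PP2 array, 174 on the ventral array, 85.3 on the dorsal array and 491 on the virgin array, and *Mrc1*, the mannose receptor, had 197 on the PP2 array, 235 on the ventral array, 90.1 on the dorsal array and 496 on the virgin array. With *Cd163*, these were the 3 of the 8 macrophage markers past 2-fold lower on the ventral than on the virgin array, against 3.39% of all detected genes. The log2 ratios of the 8 ran from -1.50 to 0.45 there. The part of these cell types in the result was not tested.

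The first comparison set pregnant against virgin ventral dermis, both given DMSO. The signal was lower on the ventral array than on the virgin array for 26 of the 31 genes (83.9%), against 47.7% of all detected genes. The median log2 ratio was -0.42, with quartiles of -0.75 and -0.26 and a range of -1.43 to 0.29, while the median over all detected genes was 0.02, with quartiles of -0.24 and 0.29. Past 2-fold, with a present call on the brighter array, 4 genes (12.9%) were lower on the ventral array, against 3.39% of all detected genes, and 0 were higher, against 3.24%. These 4 were *Mx1*, *Irf1*, *Oasl2* and *Zbp1*, and 0 genes were more than 3-fold lower, against 1.13%.

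*Mx1*, a dynamin-like GTPase whose intact form blocks influenza virus, had signals, as linear intensities in the deposited units, of 86.5 on the PP2 array, 43.4 on the ventral array, 37.4 on the dorsal array and 117 on the virgin array, and was 2.70-fold lower on the ventral array than on the virgin array. *Irf1*, a transcription factor induced above all by interferon gamma, had 5851 on the PP2 array, 2834 on the ventral array, 3558 on the dorsal array and 6776 on the virgin array, and was 2.39-fold lower. Both genes were high on the PP2 and virgin arrays and low on the ventral and dorsal arrays. *Oasl2*, a relative of the oligoadenylate synthetases, had 356 on the PP2 array, 200.3 on the ventral array, 255 on the dorsal array and 468 on the virgin array, and was 2.34-fold lower on the ventral than on the virgin array. *Zbp1*, which senses nucleic acid in the Z form and can start necroptosis, had 198 on the PP2 array, 106 on the ventral array, 63.5 on the dorsal array and 225 on the virgin array, and was 2.13-fold lower. These 2 genes held the same pair of high and low arrays as *Mx1* and *Irf1*.

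Short of 2-fold, 6 further genes were more than 1.5-fold lower on the ventral than on the virgin array. With the 4 above they made 10 of 31, against 8.17% of all detected genes, and 0 genes were more than 1.5-fold higher, against 9.4%. *Ifit1*, which binds viral RNA that lacks the host's cap methylation, had 475 on the PP2 array, 401 on the ventral array, 367 on the dorsal array and 734 on the virgin array. *Rsad2*, or viperin, makes a chain-terminating nucleotide and had 1873 on the PP2 array, 2508 on the ventral array, 3772 on the dorsal array and 4514 on the virgin array. *Ifit1* stood out on the virgin array alone, whereas *Rsad2* was also high on the dorsal array. *Gbp3* and *Iigp1*, GTPases that act on pathogen vacuoles, were both 1.71-fold lower on the ventral array. *Irf7*, which amplifies type I interferon production, was 1.65-fold lower, and *Bst2*, or tetherin, which holds budding virus to the cell surface, was 1.53-fold lower. The 5 genes with a ratio above 1 were *Ddx58* (1.22), *Xaf1* (1.17), *Parp14* (1.08), *Usp18* (1.07) and *Tap1* (1.05). With the mean over all detected probe sets of a gene 3 of these 5 turned to the other direction, with log2 ratios of -0.11 for *Xaf1*, -0.35 for *Parp14* and -1.71 for *Tap1*. For *Tap1* the mean took in a dim probe set at 1.4 on the ventral array, where it was absent, and 16.2 on the virgin array.

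**Figure D3:**
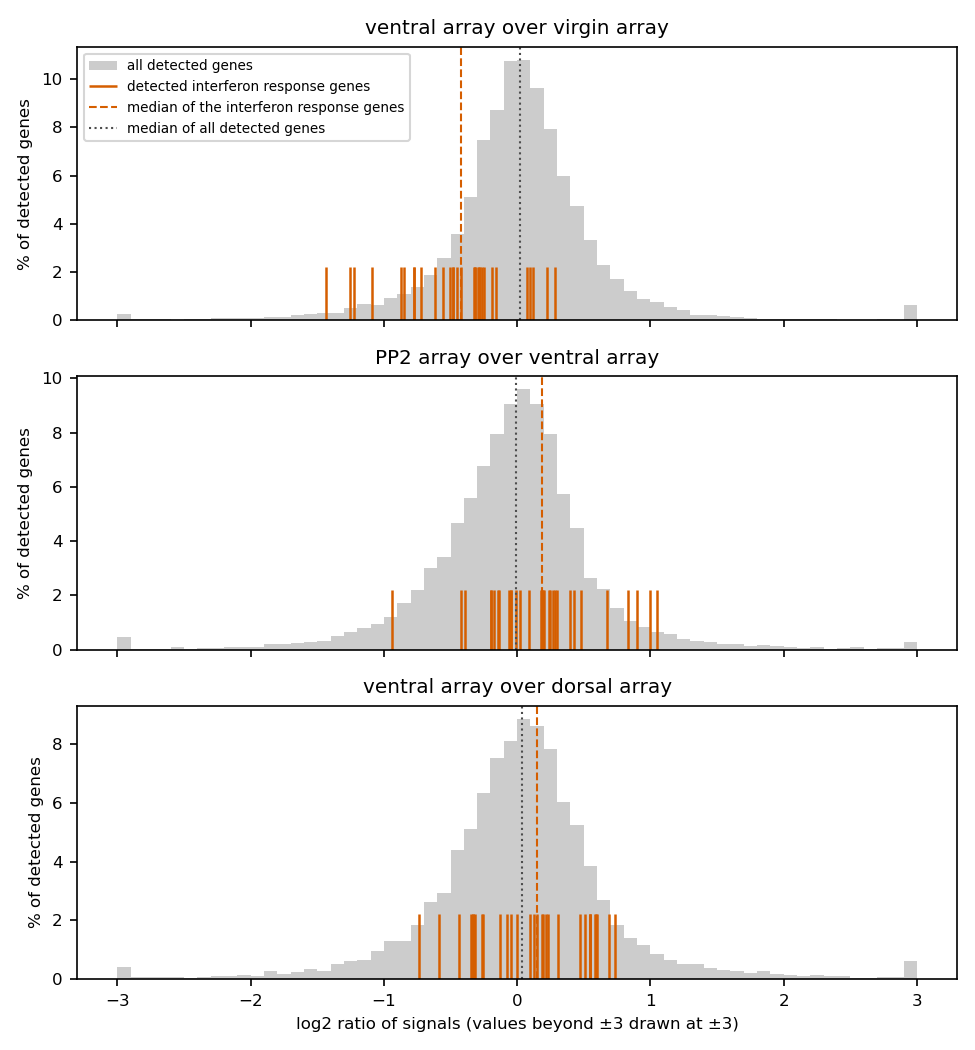
Log2 ratio of signals in each of the 3 comparisons, with the distribution over all 13375 detected genes in grey, each of the 31 detected interferon response genes as an upright orange line, and both medians. In the ventral over virgin panel the median of the interferon response genes is -0.42 and that of all genes 0.02, whereas the medians lie closer together in the other panels.

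Promoter sequences were read for these genes because 2 DNA elements are known to carry the interferon signal. RefSeq windows of 250 bases before to 50 bases after a transcription start (GRCm38.p6) were on hand for 27 of the 36 genes. *Dhx58*, *Zbp1*, *Oas2*, *Mx1*, *Mx2*, *Rtp4*, *Parp14*, *Usp18* and *Iigp1* had no entry. The core of the interferon-stimulated response element, searched on both strands as GAAA, any 2 bases and GAAA (TTTC, any 2 bases and TTTC where it lies on the other strand), was in a window of 14 of the 27 genes (51.9%), against 3.99% of all 27025 genes with a window. The core of the gamma-activated site, searched as TTCNNNGAA, which reads alike on both strands, was in a window of 7 (25.9%), against 9.55%. A match is a description of these letters and not a measured binding site. The windows of *Stat2*, *Ifit1*, *Rsad2* and *Gbp3* are shown because, among the genes with a match to the response element core, these had the largest log2 ratios in any of the 3 comparisons. Each is printed from 5′ to 3′ on the strand of the gene with the matches in capitals.
Stat2, chr10:128270248-128270547, + strand: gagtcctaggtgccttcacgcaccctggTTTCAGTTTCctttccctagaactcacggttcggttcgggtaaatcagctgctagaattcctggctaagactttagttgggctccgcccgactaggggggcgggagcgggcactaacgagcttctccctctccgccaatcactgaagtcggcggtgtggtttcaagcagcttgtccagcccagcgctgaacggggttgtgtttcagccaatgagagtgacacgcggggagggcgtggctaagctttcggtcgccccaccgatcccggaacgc
Ifit1, chr19:34640639-34640938, + strand: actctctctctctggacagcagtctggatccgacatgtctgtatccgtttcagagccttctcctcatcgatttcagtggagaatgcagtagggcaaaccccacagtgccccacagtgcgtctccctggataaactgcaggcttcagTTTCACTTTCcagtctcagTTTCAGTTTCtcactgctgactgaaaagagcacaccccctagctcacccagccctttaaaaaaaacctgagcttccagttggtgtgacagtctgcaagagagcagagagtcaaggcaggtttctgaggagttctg
Rsad2, chr12:26456403-26456702, - strand: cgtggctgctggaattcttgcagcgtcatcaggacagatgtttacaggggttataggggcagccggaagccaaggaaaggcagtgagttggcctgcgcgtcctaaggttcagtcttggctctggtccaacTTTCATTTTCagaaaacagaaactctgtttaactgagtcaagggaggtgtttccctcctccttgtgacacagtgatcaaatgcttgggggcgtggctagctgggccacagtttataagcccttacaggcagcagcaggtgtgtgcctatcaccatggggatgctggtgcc
Gbp3, chr3:142559794-142560093, + strand: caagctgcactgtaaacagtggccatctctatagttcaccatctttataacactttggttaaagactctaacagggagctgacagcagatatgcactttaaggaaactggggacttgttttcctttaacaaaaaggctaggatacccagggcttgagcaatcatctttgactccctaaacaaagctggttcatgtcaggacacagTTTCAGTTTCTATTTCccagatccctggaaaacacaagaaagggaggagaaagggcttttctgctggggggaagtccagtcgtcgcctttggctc

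*Ifit1* held 2 matches set apart from each other, *Gbp3* held 2 that overlap, and *Stat2* and *Rsad2* held 1 each. Of the 4 genes past 2-fold lower, *Mx1* and *Zbp1* had no window, and *Irf1* and *Oasl2* had windows without a match to the response element core. One window of *Irf1* held a match to TTCNNNGAA and is shown for that reason, chosen after its signals were seen, with the match in capitals.
Irf1, chr11:53769764-53770063, + strand: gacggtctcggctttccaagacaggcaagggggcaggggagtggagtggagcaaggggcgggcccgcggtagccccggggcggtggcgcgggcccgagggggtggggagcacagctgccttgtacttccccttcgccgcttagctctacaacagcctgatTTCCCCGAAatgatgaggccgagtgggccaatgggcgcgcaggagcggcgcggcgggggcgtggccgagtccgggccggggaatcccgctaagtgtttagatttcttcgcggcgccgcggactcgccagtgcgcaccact

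By role, the lower signals on the ventral array reached nearly every group. All 4 transcription factors, all 6 detected RNA-binding effectors and all 5 GTPases were lower on the ventral than on the virgin array, with median log2 ratios of -0.52, -0.53 and -0.48. Among the sensors 3 of 4 were lower (median -0.37), as were 6 of 8 detected genes of the other antiviral effectors (median -0.26) and 2 of 3 antigen processing genes (median -0.26). *Usp18*, which strips Isg15 from proteins and damps the receptor, was the only detected gene of its group and had 536 on the PP2 array, 528 on the ventral array, 427 on the dorsal array and 494 on the virgin array. Its signals differed little between the arrays.

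The sensors of double-stranded RNA stayed within 2-fold between the ventral and virgin arrays. *Ifih1*, or MDA5, which recognises long RNA duplexes, had 1008 on the PP2 array, 887 on the ventral array, 886 on the dorsal array and 1087 on the virgin array. *Ddx58*, or RIG-I, which recognises RNA ends bearing a triphosphate, had 569 on the PP2 array, 628 on the ventral array, 415 on the dorsal array and 515 on the virgin array. *Dhx58*, or LGP2, which tunes the other 2 sensors, was present at 138 on the PP2 array and 157 on the virgin array and not present on the ventral and dorsal arrays, at 115 and 78.6. It was at least 1.37-fold lower on the ventral than on the virgin array, the ventral signal being taken as the upper bound.

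Among the remaining factors, *Irf9*, the DNA-binding subunit that partners Stat2, had 1031 on the PP2 array, 1066 on the ventral array, 908 on the dorsal array and 1214 on the virgin array. *Stat2* had 103 on the PP2 array, 198 on the ventral array, 136 on the dorsal array and 245 on the virgin array. *Irf7* had 307 on the PP2 array, 272 on the ventral array, 453 on the dorsal array and 449 on the virgin array. Each of the 3 had its own order of the pregnant arrays: *Irf9* and *Stat2* were highest there on the ventral array and *Irf7* on the dorsal array.

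The RNA-binding effectors were highest on the virgin array in all 6 detected cases. *Ifit2* had 705 on the PP2 array, 612 on the ventral array, 735 on the dorsal array and 821 on the virgin array, and *Ifit3*, which joins *Ifit1* in one complex in human cells, had 730 on the PP2 array, 803 on the ventral array, 579 on the dorsal array and 1137 on the virgin array. *Oas2*, which makes the oligoadenylates that activate RNase L, had 155 on the PP2 array, 146 on the ventral array, 128 on the dorsal array and 214 on the virgin array. *Oasl1*, which in the mouse restrains translation of Irf7, had 128 on the PP2 array, 129 on the ventral array, 79.9 on the dorsal array and 161 on the virgin array. The dorsal array was lowest for 4 of the 6, among them *Ifit3*, *Oas2* and *Oasl1*. *Oas1a* and *Oas3*, of the same synthetase family, had no present call, and neither did *Mx2*, whose signals of 119 on the PP2 array, 25.8 on the ventral array, 81.9 on the dorsal array and 43.4 on the virgin array were all called absent.

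The other antiviral effectors were the most mixed group. *Bst2* had 531 on the PP2 array, 609 on the ventral array, 404 on the dorsal array and 934 on the virgin array. *Rtp4*, a receptor chaperone that also curbs flaviviruses, had 1767 on the PP2 array, 1344 on the ventral array, 897 on the dorsal array and 1599 on the virgin array. *Bst2* was highest on the virgin array and *Rtp4* on the PP2 array, and both were lowest on the dorsal array. *Xaf1*, which binds the apoptosis inhibitor Xiap, and *Parp14*, an ADP-ribosyltransferase, were highest on the ventral array, at 1685 and 906, and lowest on the dorsal array, at 1185 and 622. With the mean over detected probe sets both were highest on the virgin array, as was *Rtp4*, whose PP2 over ventral log2 ratio of 0.39 then became -0.41. *Cmpk2*, a mitochondrial nucleotide kinase whose gene neighbours *Rsad2*, ranged from 608 on the ventral array to 758 on the dorsal array. *Ifi35*, a protein with a leucine zipper, ranged from 4162 on the dorsal array to 5757 on the virgin array.

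The second comparison set the PP2 array against the ventral array, both from pregnant ventral dermis. On the PP2 array 19 of the 31 genes (61.3%) had a higher signal than on the ventral array, against 49.1% of all detected genes. The median log2 ratio was 0.18 over the interferon response genes, within a range of -0.94 to 1.05, and -0.01 over all detected genes. Past 2-fold, 1 gene was higher on the PP2 array, against 3.62% of all detected genes, and 0 were lower, against 4.73%. The count of higher genes was 3 of 31 (9.68%) both under scaling to one median, against 4.49% of all detected genes, and after quantile normalization, against 4.65%. Among all detected genes past 2-fold, 43.3% were higher on the PP2 array, and this share was 54.3% under scaling to one median and 59.1% after quantile normalization. The gene past 2-fold was *Irf1*, at 5851 on the PP2 array and 2834 on the ventral array (2.06-fold higher), and 0 were more than 3-fold higher, against 1.38%.

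*Mx1* (1.99-fold), *Zbp1* (1.87-fold), *Oasl2* (1.78-fold) and *Irgm1* (1.60-fold) followed *Irf1* in the size of the ratio. With *Irf1* they made 5 genes more than 1.5-fold higher on the PP2 array, against 9.44% of all detected genes. The ventral array is shared by all 3 comparisons, so a low ventral signal enters both ventral over virgin and PP2 over ventral, and the ratios of 1 gene in them are not separate measurements. Only *Stat2* was more than 1.5-fold lower on the PP2 array, at 103 against 198 on the ventral array (1.92-fold), whereas 12.4% of all detected genes were. The second probe set of *Stat2* had 72.3 on the PP2 array, 79.2 on the ventral array, 48.4 on the dorsal array and 93.5 on the virgin array, a PP2 over ventral ratio of 0.912.

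All 5 GTPases had a higher signal on the PP2 than on the ventral array, with log2 ratios of 0.24 to 0.68 and a median of 0.43. *Irgm1*, which regulates the other immunity-related GTPases, had 939 on the PP2 array, 588 on the ventral array, 795 on the dorsal array and 821 on the virgin array. *Gbp3* had 1629 on the PP2 array, 1166 on the ventral array, 1204 on the dorsal array and 1992 on the virgin array. *Iigp1*, an effector GTPase of the same immunity-related family, had 7663 on the PP2 array, 5689 on the ventral array, 6211 on the dorsal array and 9715 on the virgin array. For all 3 the ventral array was lowest. *Gbp2* had 2909 on the PP2 array, 2463 on the ventral array, 2219.7 on the dorsal array and 3072 on the virgin array, and *Igtp*, another immunity-related GTPase, had 1729.6 on the PP2 array, 1408 on the ventral array, 1679 on the dorsal array and 1965 on the virgin array. *Gbp2* was the only GTPase whose lowest signal was on the dorsal array. The representative probe sets of *Gbp2* and *Ifi35* are of types whose probes may also match other transcripts, and the other probe set of *Gbp2* had 2686 on the PP2 array, 2016 on the ventral array, 2058 on the dorsal array and 2474 on the virgin array.

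The antigen processing genes did not move as one. *Psmb8*, a catalytic subunit of the immunoproteasome, had 1896 on the PP2 array, 1659 on the ventral array, 1746 on the dorsal array and 2023 on the virgin array. *Psmb9*, another such subunit, had 1215 on the PP2 array, 1390.0 on the ventral array, 1302 on the dorsal array and 1668 on the virgin array. *Tap1*, a subunit of the transporter that carries peptides into the endoplasmic reticulum, had 902 on the PP2 array, 1183 on the ventral array, 1486 on the dorsal array and 1126 on the virgin array. *Psmb8* was lowest on the ventral array and the other 2 genes on the PP2 array.

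The third comparison set ventral against dorsal dermis of pregnant mice. Of the 31 genes, 19 (61.3%) had a higher signal on the ventral than on the dorsal array, against 53.2% of all detected genes. Past 2-fold, 0 genes were higher, against 5.03% of all detected genes, and 0 were lower, against 4.75%. Past 1.5-fold, 4 were higher on the ventral array, against 12.1%, and 2 were lower, against 11.4%. The median log2 ratio was 0.15, against 0.04 over all detected genes. The 4 higher genes were *Zbp1* (1.67-fold), *Oasl1* (1.61-fold), *Ddx58* (1.51-fold) and *Bst2* (1.51-fold), and the 2 lower ones were *Irf7* (1.67-fold) and *Rsad2* (2508 on the ventral array and 3772 on the dorsal array). The sensors had a median log2 ratio of 0.57, and only *Ifih1* among them had nearly equal signals, 887 on the ventral array and 886 on the dorsal array. That median rests in part on *Dhx58*, which was not present on either of these arrays. With the mean over detected probe sets the log2 ratio fell from 0.60 to 0.14 for *Ddx58* and from 0.55 to 0.27 for *Dhx58*.

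The PP2 and dorsal arrays were also set against the virgin array, which these comparisons share with ventral over virgin. On the PP2 array 25 of the 31 genes had a lower signal than on the virgin array, against 49.2% of all detected genes, with a median log2 ratio of -0.24. Past 2-fold, *Stat2* and *Rsad2* were lower (2 genes, 6.45%, against 4.18%) and 0 were higher (against 3.15%). These calls rest on the representative probe sets. The second probe set of *Stat2* stayed within 2-fold, and of the other probe sets of *Rsad2* the dimmer passed it and the brighter did not. On the dorsal array 28 of the 31 (90.3%) had a lower signal than on the virgin array, against 51.2%, with a median log2 ratio of -0.47. Past 2-fold, 5 were lower (against 4.49%), namely *Zbp1*, *Ifit1*, *Oasl1*, *Mx1* and *Bst2*, and 0 were higher (against 5.21%).

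Where a gene had several probe sets, they did not always move together. Between the ventral and virgin arrays 8 genes had more than 1 probe set present on both arrays, and in 4 of them all such probe sets had the same sign, with a median gap of 0.40 on the log2 scale and a largest gap of 1.15. Between the PP2 and ventral arrays the sign was shared in 6 of 8 genes, with a median gap of 0.26 and a largest gap of 1.51, and between the ventral and dorsal arrays in 4 of 8, with a median gap of 0.23. The largest gap between the PP2 and ventral arrays was in *Rsad2*. Its other probe sets had 155 on the PP2 array, 453 on the ventral array, 335 on the dorsal array and 367 on the virgin array, and 1248 on the PP2 array, 1281 on the ventral array, 1864 on the dorsal array and 2055 on the virgin array. The second of these held the order of the representative one, and the first did not. On the first, the signal was higher on the ventral than on the virgin array, the reverse of the representative one. The ventral over virgin log2 ratio of *Rsad2* was -0.85 with the representative probe set and -0.41 with the mean over detected probe sets. In *Psmb8* a dimmer probe set had 153 on the PP2 array, 177 on the ventral array, 199 on the dorsal array and 147 on the virgin array, the reverse of the direction of its representative in both ventral over virgin and PP2 over ventral.

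Genes around the response were read from lists of 98 genes, of which 81 were measured and 69 detected. Of 8 measured interferon genes, the 6 of *Ifng* and the alpha interferons had no present call. *Ifnb1*, interferon beta, was present only on the PP2 array, at 58.6, and not present at 45.7 on the ventral array, 49.2 on the dorsal array and 33.5 on the virgin array. *Ifnz*, limitin, had 212 on the PP2 array, 275 on the ventral array, 375 on the dorsal array and 426 on the virgin array. All 9 receptor subunits and Janus kinases were detected, and 0 of them passed 2-fold in any of the 3 comparisons. Of all detected genes, 3.24% to 5.03% passed it in a given direction, so 0 of 9 lies near that share. In ventral over virgin 7 of these 9 had a ratio above 1, against 52.3% of all detected genes, with a median log2 ratio of 0.15.

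Of the 69 detected genes of these lists, 0 were higher past 2-fold on the ventral than on the virgin array, against 3.24% of all detected genes, and 5 (7.25%) were lower, against 3.39%. A ratio below 1 was found for 49 (71.0%), against 47.7%, with a median log2 ratio of -0.22. *Ifi27l2a*, a small mitochondrial interferon-induced protein, had 1457 on the PP2 array, 605 on the ventral array, 493 on the dorsal array and 1689.8 on the virgin array. *Cxcl10*, a chemokine that draws activated T cells, had 680.3 on the PP2 array, 194 on the ventral array, 392 on the dorsal array and 442 on the virgin array. *Cxcl9*, a second ligand of the same receptor, was present at 234 on the PP2 array, 237 on the dorsal array and 185 on the virgin array and not present on the ventral array, at 84.3. Both chemokines had their lowest signal on the ventral array. *Ifi204*, a DNA-binding protein, was 2.28-fold lower on the ventral than on the virgin array, and *Gbp6*, a guanylate-binding protein, 2.09-fold lower.

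Between the PP2 and ventral arrays 4 of the 69 (5.80%) were higher past 2-fold, against 3.62% of all detected genes, and 1 (1.45%) was lower, against 4.73%. A ratio above 1 was found for 38 (55.1%), against 49.1%, with a median log2 ratio of 0.11. *Cxcl10* was 3.51-fold higher on the PP2 array, *Cxcl9* at least 2.78-fold, *Ifi27l2a* 2.41-fold and *Ifitm1* 2.45-fold. *Ifitm1*, a membrane protein that hinders viral entry, had 5387 on the PP2 array, 2203 on the ventral array, 5859 on the dorsal array and 4332 on the virgin array, and so was low on the ventral array only. *Tap2*, the partner of *Tap1*, had 400.1 on the PP2 array, 1120 on the ventral array, 1282 on the dorsal array and 1202 on the virgin array, 2.80-fold lower on the PP2 than on the ventral array. All 7 detected nucleic acid sensing genes had a higher signal on the PP2 array, with log2 ratios of 0.15 to 0.46. Between the ventral and dorsal arrays 0 of the 69 were higher past 2-fold, against 5.03% of all detected genes, and 3 (4.35%) were lower, a share near the 4.75% of all detected genes. These were *Cxcl9* (at least 2.81-fold), *Ifitm1* (2.66-fold) and *Cxcl10* (2.02-fold).

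Against the virgin array, 6 of the 69 (8.70%) were more than 2-fold lower on the PP2 array, against 4.18% of all detected genes. They were *Tap2* (400.1 on the PP2 array and 1202 on the virgin array), *Irf5*, a transcription factor of myeloid cells (at least 2.70-fold), *Socs1*, a feedback inhibitor of Janus kinases (2.32-fold), *Ifngr2*, a subunit of the interferon gamma receptor (2.21-fold), *Ifi203* (at least 2.16-fold) and *Ifnz* (2.01-fold). On the dorsal array 2 (2.90%) were more than 2-fold lower than on the virgin array, against 4.49%, namely *Ifi27l2a* and *Ifi204*.

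**Figure D4:**
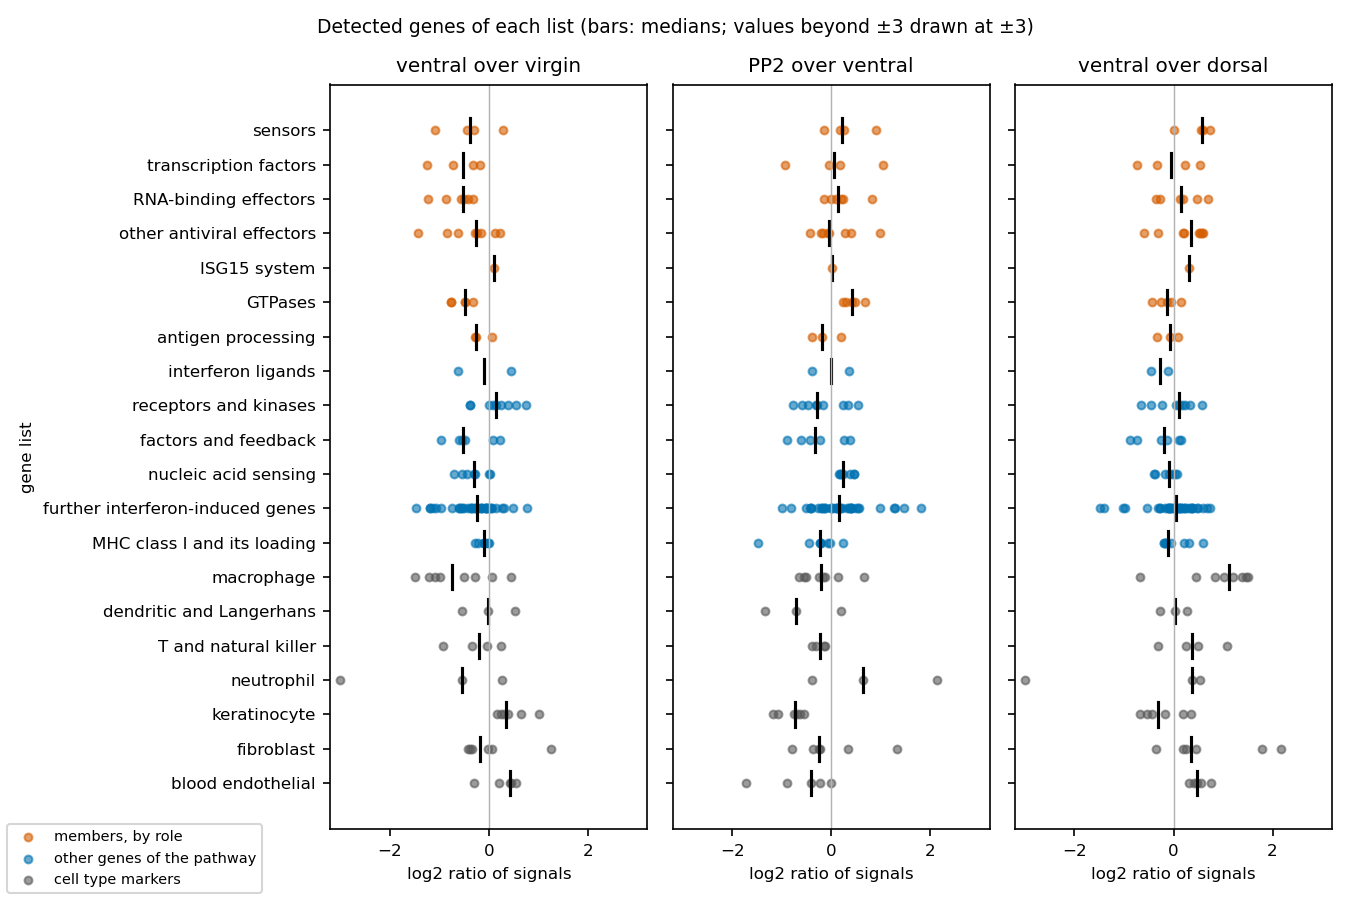
Log2 ratio of signals of each detected gene in the interferon response genes by role, in the other lists of the pathway and in the cell type marker lists, with a bar at each median and values beyond 3 drawn at 3. In ventral over virgin the medians of all role groups but the ISG15 system lie below 0, and the macrophage markers have the lowest marker median, at -0.74.

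Against the virgin array, the medians of the macrophage markers and of the interferon response genes were both below 0. The macrophage median log2 ratio over the virgin array was -0.74 for the ventral, -0.91 for the PP2 and -1.94 for the dorsal array. The interferon response genes had -0.42, -0.24 and -0.47 there. In the same order the fibroblast markers had -0.17, -0.12 and -0.46, and the T and natural killer cell markers -0.20, -0.45 and -0.45. The medians of the dendritic cell and neutrophil markers were also below 0 in all of these comparisons. The keratinocyte markers had 0.34, -0.45 and 0.62, and the blood endothelial markers 0.42, 0.0007 and -0.34. In PP2 over ventral and ventral over dorsal the macrophage markers and the interferon response genes differed in size or sign. Between the PP2 and ventral arrays the macrophage median log2 ratio was -0.21, with 6 of 8 markers lower, beside 0.18 for the interferon response genes. Between the ventral and dorsal arrays 5 of 8 macrophage markers were higher past 2-fold, against 5.03% of all detected genes. Their median log2 ratio was 1.12, beside 0.15 for the interferon response genes. Of 8 measured T and natural killer cell markers 4 were detected, with a summed signal of 415 on the PP2 array, 510 on the ventral array, 404 on the dorsal array and 579 on the virgin array, and 3 of the 4 were highest on the virgin array. Among them 3 of 4 were lower on the ventral than on the virgin array, all 4 were lower on the dorsal than on the virgin array, and *Cd3g*, a chain of the T cell receptor complex, was 2.12-fold higher on the ventral than on the dorsal array. Their part in the results was not tested. The other T and natural killer cell markers, *Cd3e*, *Cd3d*, *Cd4* and *Gzmb*, had no present call on any array, and neither did *Siglech*, a marker of plasmacytoid dendritic cells. The keratinocyte markers had a summed signal of 51098 on the PP2 array, 87604 on the ventral array, 108062 on the dorsal array and 68942 on the virgin array, all 6 being lower on the PP2 than on the ventral array.

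The arrays were similar in breadth, with 58.4% to 59.7% of probe sets present, and differed in the 3′ to 5′ signal of control genes, a measure of RNA integrity and labelling. For *Gapdh* the ratio of 3′ to 5′ probe set signal was 5.84 on the PP2 array, 1.41 on the ventral array, 2.97 on the dorsal array and 2.51 on the virgin array, and that of *Actb* was 2.70 on the PP2 array, 2.03 on the ventral array, 4.14 on the dorsal array and 2.64 on the virgin array. Both were lowest on the ventral array. Their part in the differences between arrays was not tested.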

How the data were processed

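Dermal RNA of 4 conditions was hybridised to 4 arrays. The authors deposited for each of 45101 probe sets a signal (a linear intensity) and a detection call, made by the MAS5 algorithm in Affymetrix Expression Console (version 1 in the submitters' processing notes), which scales the arrays to a common trimmed mean. Signals were used as deposited. The deposited table of all arrays differed from the single arrays for 0 probe sets, and 0 columns lacked a sample. Symbols came from the platform annotation; 34741 Entrez identifiers matched RefSeq GRCm38.p6 and 0 symbols changed.

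A gene was detected when its representative probe set was present on at least 1 array. A gene counted as higher or lower when its ratio passed 2-fold and the brighter array called it present. Shares over all detected genes were computed by the same rule. A fold is given as "at least" where the dimmer array did not call it present, with the dimmer signal as the bound. Computations used Python 3.11.15, NumPy 2.4.6 and pandas 2.3.3, and were tested on simulated data. The number of arrays limits the precision, and no p-value was computed.

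The interferon response genes, the gene lists and the alternatives were chosen with earlier results of these data known. Every interferon response gene is named; of the other lists, every detected ligand and every gene past 2-fold are named, 1 gene of the rule is not reported here, and cell type markers are examples. Promoters shown are those with a match to the response element core and the largest absolute log2 ratios, and the one of *Irf1* was added after its values were seen. Alternatives covered the scaling between arrays, the probe set per gene, the detection filter and the fold threshold.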

Additional observations from a re-analysis of the deposited data

How the results depend on the processing

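Of 97 alternative values of the counts and medians, 78 stayed close to the reported ones, 19 moved and 0 reversed. A count has no sign that could change. The values taken as close included 8 genes with a PP2 over ventral ratio below 1 under scaling to one median, beside 12 as deposited. Of 279 alternative log2 ratios of single detected genes, 15 changed sign, 7 of them with the mean over detected probe sets (*Xaf1*, *Parp14* and *Tap1* in ventral over virgin, *Rtp4*, *Psmb8* and *Tap1* in PP2 over ventral, where *Tap1* moved from -0.39 to 1.16, and *Parp14* in ventral over dorsal), 6 under scaling to one median and 2 after quantile normalization. For a gene with 1 detected probe set, such as *Irf1* or *Mx1*, the mean over detected probe sets leaves the ratio unchanged. Part of the 279 values could therefore not change sign. Across the alternatives the virgin array held the highest signal of 20 to 24 of the 31 genes and 25 to 29 genes had a ventral over virgin ratio below 1. The 4 genes past 2-fold lower in ventral over virgin were 10 at 1.5-fold, 0 at 3-fold, and 5 (with *Tap1*) both with any probe set and with the mean over detected probe sets. The 1 gene past 2-fold higher in PP2 over ventral became 3 under scaling to one median and 3 after quantile normalization (*Irf1*, *Mx1* and *Zbp1* in both), 2 with the mean over detected probe sets (*Irf1* and *Tap1*), 2 without the detection filter (*Irf1* and *Mx2*), 5 at 1.5-fold and 0 at 3-fold. The 0 genes lower there became 1 with any probe set (*Rsad2*) and 1 at 1.5-fold (*Stat2*). The median log2 ratio of PP2 over ventral moved to 0.29 under scaling to one median, which moved that of all detected genes to 0.10, so the gap between the medians was 0.19 under both. In ventral over dorsal the 0 lower genes became 1 with the mean over detected probe sets (*Tap1*), 1 without the detection filter (*Mx2*) and 2 at 1.5-fold, and the 0 higher genes became 4 at 1.5-fold. The genes highest on the PP2 array numbered 8 under scaling to one median and 5 after quantile normalization, those highest on the ventral array 1 with the mean over detected probe sets, and those highest on the dorsal array 1 under scaling to one median. The cause of these moves was not tested beyond what each setting changes by construction. No paired analysis was possible because each condition had 1 array.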

Other observations

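*Socs3*, a feedback inhibitor of cytokine receptors, belonged to the list of factors and feedback and was singled out after its values were seen. Its signal was 18159 on the PP2 array, 15154 on the ventral array, 27747 on the dorsal array and 29584 on the virgin array. It was 1.95-fold lower on the ventral than on the virgin array.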
